A study of Mus musculus with 12 samples.

Results

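The angiopoietins and their Tie receptors were examined in nuclei of the mouse lung. The 5 genes comprised the ligands Angpt1 and Angpt2, the receptors Tek (also called Tie2) and Tie1, and Ptprb, which encodes the vascular endothelial phosphatase VE-PTP. They were found by symbol among the 31053 genes of the deposited matrices, and each symbol matched 1 gene. Nuclei came from the frozen lungs of 12 C57BL/6J wild-type mice, each sequenced as its own library, in 4 groups of 3. Mice aged 7 weeks were instilled with PBS or bleomycin, which damages the lung and is followed by scarring. From day 5 they received 5 daily doses of vehicle or of NVP-BHG712, an inhibitor of the receptor tyrosine kinase EphB4, and lungs were taken on day 14. The groups are PBS_Vehicle, PBS_NVP-BHG712, Bleo_Vehicle and Bleo_NVP-BHG712.

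Angpt1 is secreted mainly by cells that lie around vessels and activates Tek on endothelial cells, which keeps the endothelium quiescent and its junctions closed. Angpt2 competes for the same receptor, is stored and released by activated endothelium in many tissues, and weakens this signal in most settings. Tie1 does not bind the angiopoietins strongly by itself and modulates Tek, while VE-PTP removes phosphate from Tek and from the junction protein VE-cadherin.

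The 12 libraries held 49163 barcodes and 184940649 unique molecular identifiers (UMIs), from 3556084 to 61947690 per library, and 44611 nuclei were kept. Clusters were named from marker lists, with the 5 genes left out of clustering and naming, which gave 20 classes with 42859 nuclei. A cluster of 428 nuclei led by Hhip and Aspn was kept under those names, and 1324 nuclei stayed unnamed. The Bleo_Vehicle libraries stood apart, with a median mitochondrial share of 0.668% to 2.56% per barcode against at most 0.0496% in the other 9. Their median UMIs per barcode were 925, 1253 and 3160. No sequencing run or batch label was shared between bleomycin and PBS libraries, nor between the Bleo_Vehicle and Bleo_NVP-BHG712 libraries, so that in those comparisons batch cannot be told apart from group. The 66 pairs of libraries shared 0 to 34 barcodes, at most 0.845% of the smaller library.

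Levels are given as CPM, the UMIs of a gene scaled to 1000000 UMIs of the class in that library. They are means ± SD over libraries with at least 20 nuclei of the class, and the order of classes is a description without a test. A pair of neighbours in the order is said to differ beyond the spread where the gap between their means exceeds their joint SD.

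Angpt1 (ENSMUSG00000022309, chr15:42424723-42676977, minus strand, GRCm38) was a gene of mesenchymal nuclei. Fibroblasts held 85.1% of all its UMIs and pericytes 5.21%. The level was 2188 ± 625 CPM in fibroblasts (n = 12), 1962 ± 721 CPM in pericytes (n = 8) and 1195 ± 606 CPM in smooth muscle (n = 3). Next came 1 adipocyte library at 414 CPM and the Hhip Aspn cluster at 254 ± 144 CPM (n = 10). No neighbours in this order differed beyond their spread, adipocytes with their 1 library having none to compare. All endothelial classes were lower, from 142 ± 99.0 CPM in lymphatic endothelium (n = 7) to 28.8 ± 26.4 CPM in venous endothelium (n = 12), and AT1 cells, the flat cells of the alveolar wall, had the lowest mean at 14.9 ± 11.3 CPM (n = 12).

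Within fibroblasts, Angpt1 was found in all 4 clusters. Cluster 2, with 4212 nuclei led by Itga8 and Scube2, had the highest values, from 1472 to 3350 CPM over the 12 libraries. Cluster 6, with 2365 nuclei led by Wnt2, Col13a1 and Mfap4, had 400 to 2908 CPM, and cluster 7, with 2240 nuclei led by Itgbl1 and Agtr1b, had 689 to 2264 CPM. Cluster 18, with 548 nuclei led by Pi16, Col14a1, Scara5 and Dcn, genes known from adventitial fibroblasts, had 350 to 1888 CPM in the 10 libraries with at least 20 nuclei. The 4 ranges overlapped.

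Angpt2 (ENSMUSG00000031465, chr8:18690263-18741562, minus strand) was sparse, with 786 UMIs in all kept nuclei. Its highest level was in lymphatic endothelium at 119 ± 81.4 CPM (n = 7), followed by smooth muscle at 71.9 ± 41.4 CPM (n = 3) and pericytes at 40.9 ± 27.8 CPM (n = 8). Blood endothelium was lower, with 12.4 ± 18.8 CPM in venous endothelium and 7.31 ± 3.73 CPM in general capillary nuclei (each n = 12). Again no neighbours in the order differed beyond their spread, adipocytes with their 1 library having none. Fibroblasts, the most numerous class, held 23.7% of Angpt2 UMIs at a mean of 4.39 CPM, against 12.8% in pericytes, 12.5% in lymphatic endothelium and 11.2% in general capillary nuclei. In dendritic cells no Angpt2 UMI was counted, which allows up to 3.51 CPM at 3 counts. This bound covers counting error only.

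In lymphatic endothelium Angpt2 was counted in all 7 libraries with at least 20 nuclei. The values were 227 and 91.8 CPM in 2 PBS_Vehicle libraries, 129 and 224 CPM in 2 PBS_NVP-BHG712 libraries, and 77.1, 9.004 and 71.5 CPM in the Bleo_Vehicle libraries. All 3 Bleo_Vehicle values lay below the 4 PBS values. They rest on 3, 1 and 23 UMIs, no Bleo_NVP-BHG712 library had 20 lymphatic nuclei, and the class was too small to be tested.

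**Figure D1:**
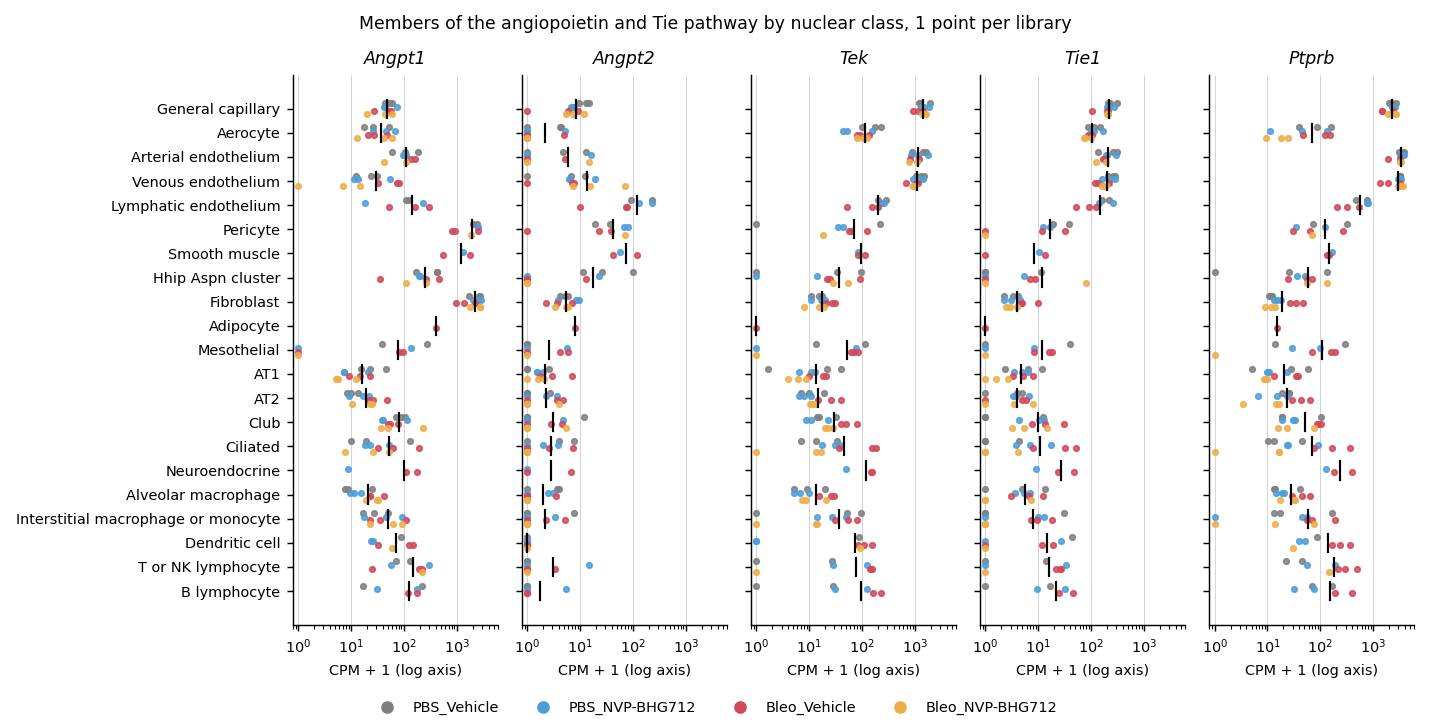
Levels of Angpt1, Angpt2, Tek, Tie1 and Ptprb by cell class, in CPM on a log scale, with 1 point per library of at least 20 nuclei and a line at the mean. Angpt1 is highest in fibroblasts and pericytes, Angpt2 in lymphatic endothelium and mural cells, and Tek, Tie1 and Ptprb in general capillary, arterial and venous endothelium.

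The receptors and the phosphatase were endothelial. Tek (ENSMUSG00000006386, chr4:94739289-94874976, plus strand) had 59.8% of its UMIs in general capillary nuclei. Its level was 1411 ± 289 CPM there (n = 12), 1147 ± 347 CPM in arterial (n = 10) and 1087 ± 233 CPM in venous endothelium (n = 12). Then the level dropped beyond the spread to 195 ± 76.1 CPM in lymphatic endothelium (n = 7) and 113 ± 52.2 CPM in aerocytes (n = 12), the large capillary cells specialised for gas exchange. Lymphatic endothelium and aerocytes did not differ beyond their spread.

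Tie1 (ENSMUSG00000033191, chr4:118471191-118490061, minus strand) was more even across the endothelium. It was measured at 213 ± 48.0 CPM in general capillary, 204 ± 61.5 CPM in arterial, 200 ± 52.9 CPM in venous and 148 ± 70.7 CPM in lymphatic endothelium. Aerocytes had 104 ± 27.5 CPM, and here the gap to the next class, at 25.4 CPM, exceeded the spread for the first time.

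Ptprb (ENSMUSG00000020154, chr10:116275523-116389535, plus strand) was highest in the larger vessels, with 3275 ± 547 CPM in arterial (n = 10) and 2945 ± 666 CPM in venous endothelium (n = 12). General capillary nuclei had 2222 ± 432 CPM (n = 12), which differed beyond the spread from lymphatic endothelium at 554 ± 238 CPM (n = 7). Lymphatic endothelium in turn differed beyond the spread from the next class at 238 CPM. Aerocytes had only 69.4 CPM.

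RefSeq promoters, from 250 bases before to 50 bases after an annotated start, were at hand for 2 of the 5 genes, Tek and Tie1, which share an endothelial pattern. For Tek this is the start of the gene as placed above. The Tie1 window lies mostly inside the gene as placed above, which on the minus strand begins at 118490061. Capitals mark GGAA or TTCC, the core of the ETS family motif on either strand. The Tek promoter is chr4:94739039-94739338 on the plus strand and the Tie1 promoter chr4:118489800-118490099 on the minus strand, both in GRCm38.p6 and written 5′ to 3′.
Tek: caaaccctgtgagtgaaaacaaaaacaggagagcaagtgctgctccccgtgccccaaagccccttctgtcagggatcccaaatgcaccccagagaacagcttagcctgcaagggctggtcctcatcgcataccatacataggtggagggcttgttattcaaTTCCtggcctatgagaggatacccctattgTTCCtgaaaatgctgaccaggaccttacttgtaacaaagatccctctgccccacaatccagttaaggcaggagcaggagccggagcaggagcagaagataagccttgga
Tie1: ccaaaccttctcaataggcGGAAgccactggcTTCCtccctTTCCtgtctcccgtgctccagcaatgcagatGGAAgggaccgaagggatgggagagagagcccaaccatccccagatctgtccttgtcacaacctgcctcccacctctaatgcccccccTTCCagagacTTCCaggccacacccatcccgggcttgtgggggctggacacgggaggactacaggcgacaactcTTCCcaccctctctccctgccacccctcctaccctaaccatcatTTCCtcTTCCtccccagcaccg
The Tek window holds 2 such matches, and 84.6% of 32851 promoters of this length hold as many or more. The Tie1 window holds 9, and 1.59% of promoters hold as many or more. At least 1 match is found in 96.0% of promoters, with a median of 3. The letters GATA or TATC occur 2 times in the Tek window and not in that of Tie1, and in 57.9% of all promoters. The letters TGTTTAC or GTAAACA, a core of the FOX family motif, occur in neither window and in 3.65% of all promoters. These matches describe the letters of the windows only.

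The 2 capillary cell types differed in all 3 endothelial genes within each lung. In all 12 libraries Tek, Tie1 and Ptprb were higher in general capillary nuclei than in aerocytes. Tek ranged from 904 to 1890 CPM (median 1395) in general capillary nuclei and from 41.8 to 223 CPM (median 101) in aerocytes, with a median ratio of 12.2 (5.56 to 31.0). For Ptprb the ranges were 1449 to 2698 CPM (median 2295) and 8.32 to 158 CPM (median 44.9), and the median ratio was 41.4 (12.2 to 323). Tie1 differed least, with 105 to 308 CPM (median 205) against 71.3 to 165 CPM (median 97.5) and a median ratio of 2.09 (1.23 to 2.80). Neither range of Tek or Ptprb overlapped that of the other cell type, whereas those of Tie1 did. The 12 ratios are a description, since the classes were defined from other genes of the same nuclei.

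The aerocyte class was made of 2 clusters that differed in these genes. The larger, with 2650 nuclei, had 79.4 CPM of Tek, 114 CPM of Tie1 and 30.2 CPM of Ptprb when its UMIs were pooled. The smaller, with 116 nuclei, had 704, 196 and 1127 CPM. With the larger cluster alone, general capillary nuclei were again higher in all 12 libraries for all 3 genes. The median ratio was then 16.7 for Tek (6.66 to 34.8), 2.18 for Tie1 (1.45 to 2.80) and 90.9 for Ptprb (23.9 to 234 in 11 libraries, the other having no Ptprb UMI in aerocytes).

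**Figure D2:**
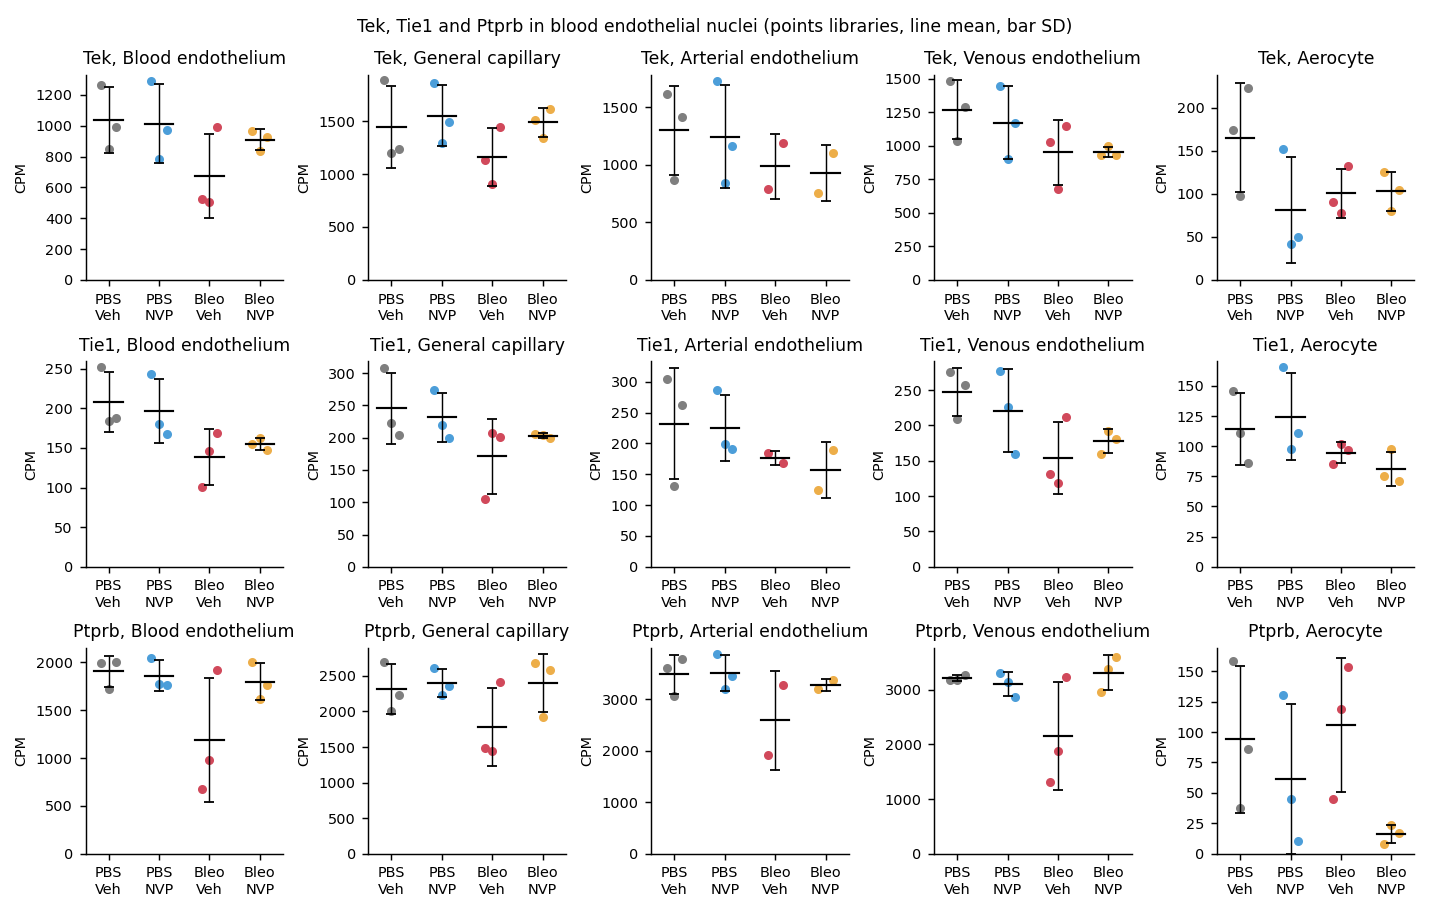
Tek, Tie1 and Ptprb in 4 classes of blood endothelium by group, in CPM, with 1 point per library of at least 20 nuclei, a line at the mean and a bar for the SD. In each library the general capillary level lies above the aerocyte level, by the widest margin for Ptprb and the narrowest for Tie1.

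The balance of receptor and phosphatase within a class was described by the share of Tek in the sum of Tek and Ptprb UMIs, which does not depend on the depth of the class. In the lung as a whole it was 36.2%. Several classes not known for either gene gave similar shares, with 33.9% in AT2 cells (exact binomial 95% interval 29.7% to 38.3%), 34.4% in ciliated cells (31.3% to 37.6%) and 34.1% in alveolar macrophages (29.4% to 39.0%). Other classes outside the endothelium were higher, with 38.2% in AT1 cells (36.0% to 40.5%) and 37.5% in pericytes (33.5% to 41.6%). Smooth muscle had 39.7% (31.4% to 48.4%) and the Hhip Aspn cluster 38.8% (30.1% to 48.1%). General capillary nuclei had 39.6% (39.1% to 40.0%), a value within the intervals of AT1 cells, pericytes, smooth muscle and the Hhip Aspn cluster. Arterial, venous and lymphatic endothelium had 27.8%, 27.6% and 26.8%. In aerocytes the share was 52.6% (50.3% to 54.9%; 967 Tek and 872 Ptprb UMIs). It was 72.4% (69.1% to 75.6%; 554 and 211 UMIs) in the larger aerocyte cluster and 38.5% (35.5% to 41.4%) in the smaller one, so the class value mixes unlike clusters. The intervals cover counting error only.

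Outside the endothelium, fibroblast cluster 18 had a Tek share of 68.3% (62.9% to 73.4%), from 218 Tek and 101 Ptprb UMIs. Pooled over libraries, it had 110 CPM of Tek and 51.0 CPM of Ptprb. Tek was 104, 98.0 and 126 CPM in the PBS_Vehicle libraries, 120, 84.6 and 173 CPM in PBS_NVP-BHG712, 82.8 and 97.2 CPM in 2 Bleo_Vehicle libraries and 180 and 239 CPM in 2 Bleo_NVP-BHG712 libraries. The gene was therefore counted in each of the 10 libraries with at least 20 such nuclei. The other fibroblast clusters had Tek shares of 41.8% (cluster 2), 35.6% (cluster 6) and 46.2% (cluster 7).

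**Figure D3:**
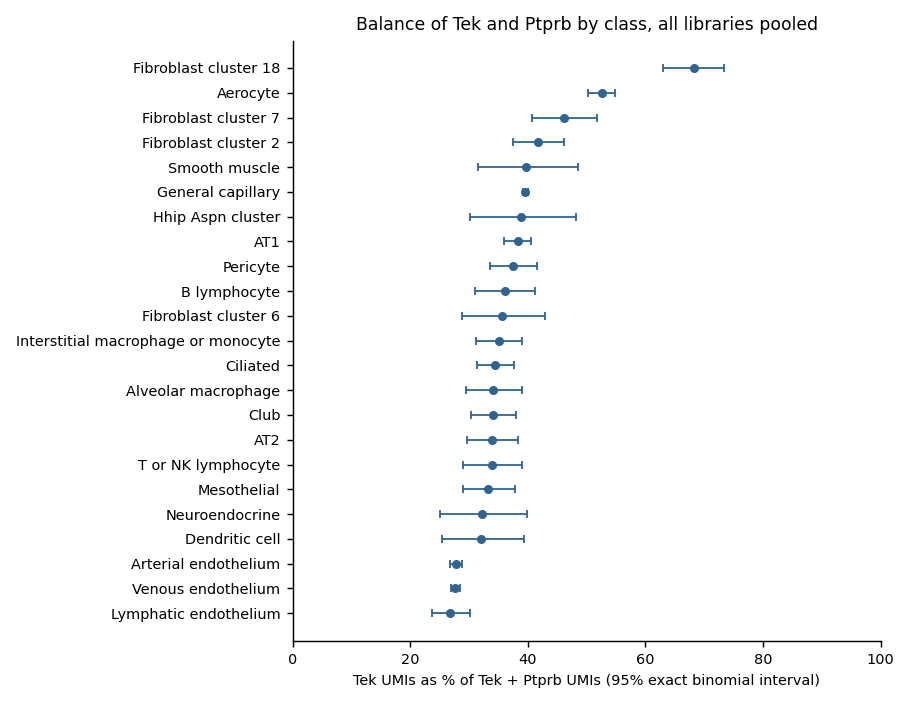
Share of Tek in the sum of Tek and Ptprb UMIs by class and fibroblast cluster, in percent, with exact binomial 95% intervals. Adipocytes and fibroblasts as a whole are not shown. Fibroblast cluster 18 at 68.3% and aerocytes at 52.6% are the highest, and the aerocyte value mixes clusters at 72.4% and 38.5%. Fibroblast clusters 7 and 2 at 46.2% and 41.8% and general capillary nuclei at 39.6% also lie above the lung as a whole at 36.2%. So do smooth muscle at 39.7%, the Hhip Aspn cluster at 38.8%, AT1 cells at 38.2% and pericytes at 37.5%. Arterial, venous and lymphatic endothelium lie below it.

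For each of the 5 genes, the genes with the most similar pattern over the 20 classes were found by Pearson's r of log2(mean CPM + 1) among 13874 genes. All points of a pattern share the same 12 libraries, and the classes differ in depth and in number of nuclei. Angpt1 was most like Ednra (r = 0.94), Vstm4 (0.93), Ism1 (0.92), Col6a3 (0.91) and Abca8b (0.91). Ednra is the endothelin receptor of mesenchymal cells and Col6a3 a chain of collagen VI. Angpt2 was most like Atp1b2 (0.86), Gap43, Apold1 and Col18a1 (each 0.82) and Nr2f1 (0.81).

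Tek was most like Clec14a (0.96), Bmp6, Eng, Rasip1 and Pcdh17 (each 0.95). Eng is the TGF-beta co-receptor endoglin of endothelium and Rasip1 a regulator of vessel lumen formation. For Tie1 the closest genes were Ushbp1 and Ccm2l (each 0.98) and Rasip1, Nova2 and Egfl7 (each 0.97), and for Ptprb they were Tmem2 (0.97), Bmp6 (0.96), Armcx4 (0.95), Plvap (0.94) and Tek itself (0.94). Plvap forms the diaphragms of endothelial caveolae and fenestrae.

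The effects of bleomycin and of NVP-BHG712 were then compared over the 12 mice. UMIs were summed per library and class and tested with edgeR's quasi-likelihood test, with p-values adjusted by the Benjamini-Hochberg method over all genes of the class. A gene was called at an adjusted p under 0.05. The lung as a whole, blood endothelium, mural cells and single classes gave 15 units, 14 of which had a member that passed the filter on low counts, for 44 tests of a member per comparison. In Bleo_Vehicle against PBS_Vehicle 3 of the 44 were called, all higher, where 2.74% of all tests were called, and 13 had an unadjusted p under 0.05, as did 14.8% of all tests. In Bleo_NVP-BHG712 against Bleo_Vehicle 5 were called, 1 higher and 4 lower, where 3.85% of all tests were called, and 13 had an unadjusted p under 0.05, as did 18.2% of all tests. The units overlap, so the 44 tests are not independent. The counts turned on single libraries, and those over all genes moved with them. In Bleo_Vehicle against PBS_Vehicle there were 12 calls without Bleo_Vehicle replicate 3 (8.29% of all tests called), 1 without its replicate 2 (1.06%) and 5 without PBS_Vehicle replicate 1 (1.61%). In Bleo_NVP-BHG712 against Bleo_Vehicle there were 10 without Bleo_Vehicle replicate 3 (9.74% of all tests) and 1 without its replicate 2 (1.49%). Without Bleo_NVP-BHG712 replicates 1, 2 and 3 there were 2, 1 and 2, with 1.03%, 1.32% and 0.801% of all tests called. When nuclei were held to a stricter standard, no fewer than 500 UMIs with at most 1% of them mitochondrial, 0 members were called in either comparison, where 1.52% and 1.94% of all tests were.

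In PBS_NVP-BHG712 against PBS_Vehicle edgeR called 0 members, and 0% of all tests were called. An unadjusted p under 0.05 was reached by 1 member test and by 854 of 92311 tests in all, and DESeq2 called 5 of the latter and 0 of the former. Without PBS_Vehicle replicate 2, edgeR called 1 member and 38 of 101069 tests in all. With the replicate number as a block among the 6 PBS libraries, edgeR called 0 members and 74 of 87047 tests in all. Bleo_NVP-BHG712 against PBS_NVP-BHG712 gave 0 members in edgeR, again with 0% of all tests called. Here 4 member tests and 2969 tests in all had an unadjusted p under 0.05, and DESeq2 called 0 of 92311. In the interaction, which compares the NVP-BHG712 effect under bleomycin with that under PBS, 1 member test was called where 0.376% of all tests were.

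Angpt1 was lower in the lungs of Bleo_Vehicle mice than in the other groups. In the lung as a whole its level was 740, 569 and 905 CPM in PBS_Vehicle, 685, 726 and 840 CPM in PBS_NVP-BHG712, 205, 386 and 494 CPM in Bleo_Vehicle, and 837, 602 and 848 CPM in Bleo_NVP-BHG712. All 3 Bleo_Vehicle values lay below the other 9. In such a whole-lung sum, fewer nuclei of a type and less RNA per nucleus cannot be told apart. The difference between Bleo_Vehicle and PBS_Vehicle was -0.99 on the log2 scale (SE 0.27) and was not called by edgeR (adjusted p = 0.0815), where 2.43% of all whole-lung genes were called. Angpt1 rose in Bleo_NVP-BHG712 against Bleo_Vehicle by 1.11 (SE 0.27, edgeR adjusted p = 0.0387), where 5.56% of genes were called. The interaction was 1.11 and was not called (adjusted p = 0.259).

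These whole-lung calls of Angpt1 turned on single libraries. The rise in Bleo_NVP-BHG712 was not called by edgeR without Bleo_NVP-BHG712 replicate 1 (adjusted p = 0.131), 2 (0.0557) or 3 (0.140), without Bleo_Vehicle replicate 1 (a log2 difference of 0.84, adjusted p = 0.0672) or 2 (0.0793), or without PBS_NVP-BHG712 replicate 2 (0.0572). Without Bleo_Vehicle replicate 3, Angpt1 fell in Bleo_Vehicle against PBS_Vehicle by 1.24 (adjusted p = 0.0273), and DESeq2 on all libraries called this difference too (adjusted p = 0.0124). The rise in Bleo_NVP-BHG712 was also not called by edgeR without the filter on low counts (adjusted p = 0.0600), among the stricter nuclei (0.0698) or when only the libraries of these 2 groups entered the fit (0.0800).

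Within fibroblasts, the main source of Angpt1, the values were 2721, 1699 and 2628 CPM in PBS_Vehicle and 2522, 2049 and 2872 CPM in PBS_NVP-BHG712. They were 956, 1356 and 2180 CPM in Bleo_Vehicle and 2720, 1790 and 2762 CPM in Bleo_NVP-BHG712. The Bleo_Vehicle mean of 1498 ± 624 CPM (n = 3) was the lowest, but the highest of its libraries overlapped every other group. The log2 difference of Angpt1 was -0.67 (SE 0.28, adjusted p = 0.205) for Bleo_Vehicle against PBS_Vehicle, where edgeR called 5.29% of fibroblast genes. It was 0.78 (SE 0.28, adjusted p = 0.106) for Bleo_NVP-BHG712 against Bleo_Vehicle, where edgeR called 7.87%. Neither was called. Without Bleo_Vehicle replicate 3, the deepest library, both were, with -1.04 (adjusted p = 0.0239) and 1.15 (adjusted p = 0.0138).

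The makeup of the fibroblasts moved with the group as well. Cluster 2, the one with the most Angpt1, was 52.4 ± 1.82% of fibroblasts in PBS_Vehicle, 48.0 ± 1.74% in PBS_NVP-BHG712, 35.9 ± 6.91% in Bleo_Vehicle and 47.5 ± 1.61% in Bleo_NVP-BHG712 (each n = 3). Within cluster 2 Angpt1 was 3322, 1885 and 2777 CPM in PBS_Vehicle, 1472, 1819 and 2780 CPM in Bleo_Vehicle, and 3124, 2118 and 3173 CPM in Bleo_NVP-BHG712. In cluster 6 it was 2714, 1635 and 2353 CPM, then 400, 1036 and 2085 CPM, then 2140, 1998 and 2908 CPM in the same groups. In both clusters Bleo_Vehicle replicates 1 and 2 were the lowest of the 12 libraries and replicate 3 lay among the others. The part of the makeup in the fibroblast value was not tested.

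**Figure D4:**
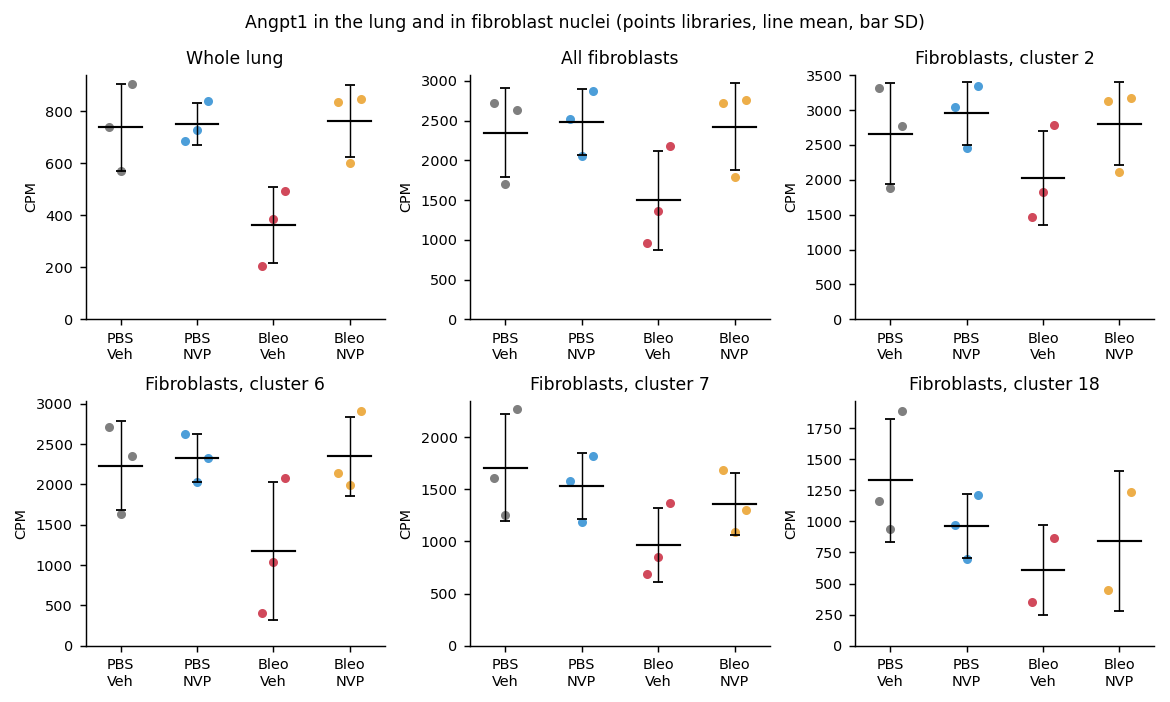
Angpt1 by group in the lung as a whole and in fibroblasts and their clusters, in CPM, with 1 point per library of at least 20 nuclei, a line at the mean and a bar for the SD. The 3 Bleo_Vehicle points lie below all others in the lung as a whole, while in fibroblasts the highest of them, at 2180 CPM, lies within the range of the other groups.

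In mural nuclei, pericytes and smooth muscle together, the log2 difference of Angpt1 was -0.80 (SE 0.47, edgeR adjusted p = 0.835) in Bleo_Vehicle against PBS_Vehicle and 0.05 in Bleo_NVP-BHG712 against Bleo_Vehicle. The values were 2048 and 2776 CPM in 2 PBS_Vehicle libraries, 833, 752 and 2276 CPM in Bleo_Vehicle, and 1833 and 1047 CPM in 2 Bleo_NVP-BHG712 libraries. As in fibroblasts, Bleo_Vehicle replicate 3 lay apart from the other 2.

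Angpt2 was compared with Angpt1 by the ratio of their UMIs in the lung as a whole. Per 1000 Angpt1 UMIs there were 8.20, 8.77 and 2.72 Angpt2 UMIs in PBS_Vehicle, 9.25, 6.49 and 5.13 in PBS_NVP-BHG712, 14.8, 9.33 and 10.4 in Bleo_Vehicle, and 3.05, 4.34 and 5.04 in Bleo_NVP-BHG712. All 3 Bleo_Vehicle ratios lay above the other 9. The log2 ratio, with 0.5 added to each count, was 0.95 higher in Bleo_Vehicle than in PBS_Vehicle and 1.45 lower in Bleo_NVP-BHG712 than in Bleo_Vehicle. Without PBS_Vehicle replicate 3 the first difference was 0.42. Both had p = 0.1 in a two-sided exact permutation test, the smallest p that 3 mice against 3 allow, and p = 0.2 after adjustment over 4 such comparisons. The other 2 comparisons, PBS_NVP-BHG712 against PBS_Vehicle (difference 0.21) and all bleomycin against all PBS libraries (0.13), had adjusted p = 0.8 in the same exact test.

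These ratios rest on few Angpt2 UMIs, 135, 36 and 12 in PBS_Vehicle, 191, 37 and 25 in PBS_NVP-BHG712, 13, 49 and 238 in Bleo_Vehicle and 9, 18 and 23 in Bleo_NVP-BHG712. Angpt2 itself differed by -0.13 on the log2 scale between Bleo_Vehicle and PBS_Vehicle and by -0.32 between Bleo_NVP-BHG712 and Bleo_Vehicle, neither called, while Angpt1 differed by -0.99 and 1.11.

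Tek, Tie1 and Ptprb were not called in any endothelial unit. In blood endothelium Tek was 1267, 847 and 993 CPM in PBS_Vehicle, 1288, 785 and 970 CPM in PBS_NVP-BHG712, 525, 508 and 991 CPM in Bleo_Vehicle, and 967, 837 and 926 CPM in Bleo_NVP-BHG712. Bleo_Vehicle replicates 1 and 2 were the lowest of the 12, while replicate 3 fell among the others. The log2 difference of Tek was -0.54 (SE 0.23, edgeR adjusted p = 0.310) for Bleo_Vehicle against PBS_Vehicle, where 2.26% of genes were called, and 0.40 (adjusted p = 0.395) for Bleo_NVP-BHG712 against Bleo_Vehicle, where 3.34% were.

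Ptprb followed the same libraries. It was 1996, 1719 and 2008 CPM in PBS_Vehicle, 2045, 1770 and 1763 CPM in PBS_NVP-BHG712, 675, 975 and 1917 CPM in Bleo_Vehicle, and 2003, 1619 and 1764 CPM in Bleo_NVP-BHG712. The log2 differences were -0.60 (SE 0.26, adjusted p = 0.314) and 0.56 (SE 0.26, adjusted p = 0.268), neither called by edgeR. Without Bleo_Vehicle replicate 3, edgeR called Ptprb in both comparisons, at -1.14 (adjusted p = 0.000565) and 1.10 (adjusted p = 0.000848), and Tek in Bleo_Vehicle against PBS_Vehicle at -0.94 (adjusted p = 0.00611). Replicate 3 of Bleo_Vehicle is the library with the most UMIs, so these calls rest on the 2 shallower ones.

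Tie1 was 251, 183 and 188 CPM in PBS_Vehicle, 243, 180 and 167 CPM in PBS_NVP-BHG712, 100, 146 and 169 CPM in Bleo_Vehicle, and 155, 162 and 148 CPM in Bleo_NVP-BHG712. The log2 differences of -0.48 (SE 0.19, adjusted p = 0.250) and 0.10 (adjusted p = 0.852) were not called by edgeR. The 10 pan-endothelial markers, none of them a member, were all lower in Bleo_Vehicle than in PBS_Vehicle in these nuclei, with a median log2 difference of -0.30 and no call.

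Within the general capillary and venous classes the differences were smaller. In general capillary nuclei, Bleo_Vehicle against PBS_Vehicle gave log2 differences of -0.20 (SE 0.21) for Tek, -0.33 (SE 0.21) for Tie1 and -0.26 (SE 0.21) for Ptprb, and in venous endothelium -0.24, -0.45 and -0.39. General capillary Ptprb was 2698, 2010 and 2236 CPM in PBS_Vehicle and 1482, 1449 and 2408 CPM in Bleo_Vehicle. Venous Ptprb was 3186, 3187 and 3274 CPM and 1318, 1881 and 3243 CPM in those groups. In arterial endothelium, where a group had as few as 2 libraries, the PBS_Vehicle and Bleo_Vehicle means were 1299 and 989 CPM for Tek. They were 232 and 177 CPM for Tie1 and 3489 and 2592 CPM for Ptprb. Aerocytes gave -0.54 (SE 0.39) for Tek, the same as blood endothelium as a whole. Their means in these groups were 114 and 94.7 CPM for Tie1 and 94.1 and 106 CPM for Ptprb. None of these was called by edgeR.

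The balance of the 2 capillary types within blood endothelium also moved. The general capillary and aerocyte nuclei numbered 549 and 282 in PBS_Vehicle replicate 1, 301 and 109 in replicate 2, and 148 and 73 in replicate 3. In Bleo_Vehicle they numbered 102 and 134, 493 and 433, and 1542 and 622. Bleo_Vehicle replicate 1 was thus the one library of these 6 with more aerocytes than general capillary nuclei, and its sum for blood endothelium held less of the cell type with high Tek. The part of this in the difference of Tek was not tested.

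The share of blood endothelial nuclei among all nuclei was 27.6%, 21.7% and 20.03% in PBS_Vehicle, 29.1%, 21.0% and 20.2% in PBS_NVP-BHG712, 12.0%, 18.01% and 23.2% in Bleo_Vehicle, and 17.1%, 23.3% and 20.8% in Bleo_NVP-BHG712. All groups overlapped. Bleo_Vehicle was 5.35 percentage points lower than PBS_Vehicle (exact permutation p = 0.3, adjusted p = 0.6), and all bleomycin libraries were 4.17 points lower than all PBS libraries (exact permutation p = 0.121, adjusted p = 0.485). Among the stricter nuclei the latter difference was -6.13 points (exact permutation p = 0.0346, unadjusted). In the lung as a whole, Tek, Tie1 and Ptprb had log2 differences of -0.38, -0.36 and -0.38 in Bleo_Vehicle against PBS_Vehicle, with edgeR adjusted p = 0.556, 0.632 and 0.559.

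The remaining calls concerned Ptprb and Tek outside the endothelium, at low levels. In fibroblasts Ptprb was 11.3, 10.8 and 9.90 CPM in PBS_Vehicle, 17.3, 14.3 and 12.3 CPM in PBS_NVP-BHG712, 34.0, 45.4 and 26.0 CPM in Bleo_Vehicle, and 7.90, 12.996 and 10.8 CPM in Bleo_NVP-BHG712. The Bleo_Vehicle values did not overlap the other 9. Ptprb rose in Bleo_Vehicle against PBS_Vehicle by 1.68 (SE 0.27, edgeR adjusted p = 0.00271) and fell in Bleo_NVP-BHG712 against Bleo_Vehicle by 1.59 (SE 0.28, adjusted p = 0.00530). Both calls held when any single library was left out. The interaction was -2.03 (SE 0.40, adjusted p = 0.0315), a call lost without any 1 of 8 libraries, namely Bleo_NVP-BHG712 replicates 1 and 3, Bleo_Vehicle replicate 2, PBS_NVP-BHG712 replicates 1 and 2 and each PBS_Vehicle replicate. Without these the interaction was -2.06 to -1.77, with edgeR adjusted p-values of 0.0517 to 0.129. The call was also lost among the stricter nuclei (-1.40, edgeR adjusted p = 0.284) and without Harmony (-1.05, adjusted p = 0.634). Tek in fibroblasts differed by 0.84 (SE 0.32, adjusted p = 0.154) and -0.78 (SE 0.33, adjusted p = 0.173) and was not called.

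Endothelial markers moved with Ptprb in fibroblasts. The summed level of the 10 pan-endothelial markers was 123, 107 and 116 CPM in PBS_Vehicle, 154, 134 and 152 CPM in PBS_NVP-BHG712, 305, 353 and 182 CPM in Bleo_Vehicle, and 98.8, 98.4 and 146 CPM in Bleo_NVP-BHG712, against 14431 CPM in general capillary nuclei. Of the 8 that could be tested in fibroblasts, 8 were higher in Bleo_Vehicle than in PBS_Vehicle (3 called, median log2 difference 1.24) and 0 were higher in Bleo_NVP-BHG712 than in Bleo_Vehicle (2 called as lower, median -1.52). A marker can pass the filter on low counts through the group where it is high, so these counts are a description. The Ptprb calls were lost among the stricter nuclei, where the differences were 1.06 (adjusted p = 0.130) and -0.96 (adjusted p = 0.159). They were also lost when the clusters were made without Harmony, at 0.59 (adjusted p = 0.654) and -2.34 (adjusted p = 0.0620). The part of endothelial RNA in the Ptprb result was not tested.

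In epithelium Ptprb was called in ciliated and AT2 cells and not in AT1 cells. Over the 15 units pooled, edgeR called 2.74% of all tests in Bleo_Vehicle against PBS_Vehicle. In Bleo_NVP-BHG712 against Bleo_Vehicle the pooled share was 3.85%. Shares for each epithelial class alone are not given here. In ciliated cells Ptprb was 43.7, 9.12 and 12.0 CPM in PBS_Vehicle, 88.7, 22.1 and 23.3 CPM in PBS_NVP-BHG712, 169, 364 and 74.9 CPM in Bleo_Vehicle, and 0, 15.8 and 15.5 CPM in Bleo_NVP-BHG712. It rose in Bleo_Vehicle by 3.22 (SE 0.72, edgeR adjusted p = 0.0330) and fell in Bleo_NVP-BHG712 by 4.28 (SE 0.87, adjusted p = 0.0139). Tek was 31.9, 12.2 and 6.02 CPM, 37.6, 16.6 and 29.1 CPM, 153, 185 and 36.2 CPM, and 0, 12.6 and 15.5 CPM in the same order of groups, and changed by 2.75 (SE 0.66, adjusted p = 0.0407) and -3.65 (SE 0.79, adjusted p = 0.0163). The summed pan-endothelial markers ranged from 102 to 437 CPM in PBS_Vehicle, from 521 to 2258 CPM in Bleo_Vehicle and from 46.6 to 123 CPM in Bleo_NVP-BHG712. Of the 10 markers, 4 passed the filter on low counts in ciliated cells. Of these, 2 were called as higher in Bleo_Vehicle than in PBS_Vehicle and 3 as lower in Bleo_NVP-BHG712 than in Bleo_Vehicle. A gene can pass that filter through the group where it is high, which favours such a pattern, so these counts are a description.

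The ciliated calls turned on few libraries. The rise of both genes was lost without Bleo_Vehicle replicate 1 or 2 or without PBS_Vehicle replicate 2 or 3. Without Bleo_Vehicle replicate 2 the Tek difference between Bleo_NVP-BHG712 and Bleo_Vehicle was -2.78 (edgeR adjusted p = 0.243) and that of Ptprb -3.16 (adjusted p = 0.131). The fall of Tek was also lost without any 1 of the Bleo_NVP-BHG712 replicates, and that of Ptprb without replicate 2 (adjusted p = 0.0519). Bleo_NVP-BHG712 replicate 1 had no UMI of either gene.

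In AT2 cells, which make surfactant, Ptprb was 24.1, 17.7 and 24.1 CPM in PBS_Vehicle, 41.6, 62.3 and 28.5 CPM in Bleo_Vehicle, and 13.7, 2.40 and 15.4 CPM in Bleo_NVP-BHG712. The Bleo_Vehicle values lay above those of PBS_Vehicle, a difference of 1.06 that was not called (SE 0.44, edgeR adjusted p = 0.202). Ptprb fell in Bleo_NVP-BHG712 against Bleo_Vehicle by 2.20 (SE 0.56, edgeR adjusted p = 0.0292), a call lost without any 1 of the Bleo_NVP-BHG712 replicates or without Bleo_Vehicle replicate 2 (adjusted p = 0.169). The summed pan-endothelial markers were 262, 369 and 186 CPM in Bleo_Vehicle and 99.7, 106 and 145 CPM in Bleo_NVP-BHG712. Of the 10 markers, 4 passed the filter on low counts in AT2 cells, and 1 of these was called as lower. As in the other 2 classes, the part of endothelial RNA in this result was not tested.

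In AT1 cells Ptprb was 56.3, 27.3 and 4.06 CPM in PBS_Vehicle, 12.1, 36.1 and 33.0 CPM in Bleo_Vehicle, and 7.71, 9.003 and 8.26 CPM in Bleo_NVP-BHG712. The first 2 groups overlapped, with a log2 difference of -0.04 (SE 0.59, edgeR adjusted p = 0.988), and Bleo_NVP-BHG712 against Bleo_Vehicle gave -1.71 (SE 0.70, adjusted p = 0.182). The summed pan-endothelial markers, as means over the libraries of a group, were 209 CPM in PBS_Vehicle, 173 CPM in Bleo_Vehicle and 56.4 CPM in Bleo_NVP-BHG712. A cluster of 154 AT1 nuclei held 601 of the 1113 Ptprb UMIs of the class, at 514 CPM when pooled. The largest AT1 cluster, with 4855 nuclei, had 11.5 CPM. The class values thus mix unlike clusters, and the part of this in the differences was not tested.

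**Figure D5:**
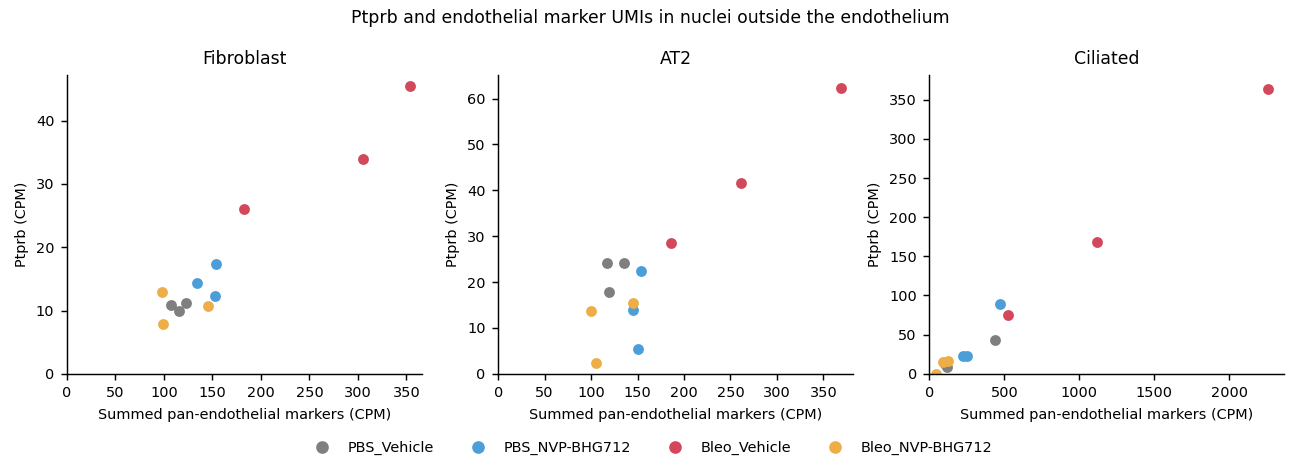
Ptprb and the summed 10 pan-endothelial markers in fibroblasts, ciliated cells and AT2 cells, in CPM, with 1 point per library. The mean of both measures is highest in Bleo_Vehicle in all 3 classes.

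The wider Tie pathway was followed in 4 lists with 37 genes in all, covering the adaptors and kinases bound by Tie2, the AKT and FOXO arm, ligand partners with integrins and sheddases, and partners of VE-PTP at the junction. In blood endothelium 32 of the 37 were tested. In Bleo_Vehicle against PBS_Vehicle 1 rose and 0 fell by edgeR, where 2.26% of all genes of blood endothelium were called. An unadjusted p under 0.05 was reached by 5 of the 32, and by 14.8% of all tests over the 15 units. The gene called was Svep1, an extracellular protein that binds Tie1, which rose by 2.19 (SE 0.50, adjusted p = 0.0261) from 3.04 ± 2.64 to 17.5 ± 6.59 CPM (each n = 3). Fibroblasts held 620 ± 42.2 CPM of Svep1 in PBS_Vehicle. Of the 9 fibroblast markers, 5 passed the filter on low counts in blood endothelium, and 2 of these were called as higher along with Svep1. The median log2 difference of the 5 was 1.24. The part of fibroblast RNA in this was not tested. The Svep1 call was lost without Bleo_Vehicle replicate 2 (a difference of 1.81, adjusted p = 0.262) or without PBS_Vehicle replicate 1 (0.0749), 2 (0.0828) or 3 (0.0615).

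Under PBS, NVP-BHG712 gave 0 calls in edgeR among the 32 genes tested in blood endothelium and 0 with an unadjusted p under 0.05. Over all units 0% of tests were called there, and 0.925% had an unadjusted p under 0.05. The 6 partners of VE-PTP, among them VE-cadherin (Cdh5), were all tested in blood endothelium and none was called in Bleo_Vehicle against PBS_Vehicle or in Bleo_NVP-BHG712 against Bleo_Vehicle, with median log2 differences of -0.05 and -0.19 against -0.02 and -0.03 over all genes. In mural nuclei 16 genes were tested and 0 were called by edgeR in any comparison, with 2 at an unadjusted p under 0.05 in each of these 2. Over the 15 units pooled, 2.74% and 3.85% of all tests were called, and 14.8% and 18.2% had an unadjusted p under 0.05. The share in mural nuclei alone, which had 9 libraries, is not given here. The 0 calls among the 16 genes are therefore no result about the pathway. In fibroblasts 32 were tested, and 1 and 2 were called in these comparisons, where 5.29% and 7.87% of all fibroblast genes were. In Bleo_Vehicle against PBS_Vehicle the kinase subunit gene Pik3cb rose by 1.58 (edgeR adjusted p = 0.0222). In Bleo_NVP-BHG712 against Bleo_Vehicle Pik3ca rose by 0.62 (adjusted p = 0.0380) and Cdh5, itself one of the endothelial genes, fell by 1.71 (adjusted p = 0.0367). These 3 were named after their values were seen.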

How the data were processed

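The authors aligned the reads to mm10 (GRCm38) with Cell Ranger, given as version 7.0 in the processing notes and 7.2.0 in the file headers, and deposited raw UMI counts per gene and nucleus, as 1 matrix per library. The notes also name Seurat 4.4.1. Gene positions are those of GENCODE M21.

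Nuclei needed at least 200 and at most 6000 genes with a UMI and at most 5% mitochondrial UMIs (47319 of 49163 barcodes). The highest scrublet scores, 0.8% per 1000 nuclei, were removed as doublets (2708 nuclei, 5.72%). Clustering used scanpy 1.11.5 with 2000 variable genes, 30 principal components corrected by Harmony, 20 neighbours and Leiden resolution 1.0. Free RNA was not removed. Clusters took a class name from at least 3 raised markers. The naming rules, including how the Hhip Aspn cluster was treated, were set after the clusters were seen, and the names are rebuilt, so that they read as fibroblast-like and so on. Members, marker lists and pathway lists were chosen with earlier results of these data known.

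UMIs were summed per library and class (at least 20 nuclei in at least 2 libraries per group) and all 12 sums fitted with a mean per group in edgeR 4.0.16 (filterByExpr, TMM, robust quasi-likelihood F test, two-sided, R 4.3.3). Benjamini-Hochberg adjustment ran over all genes of a unit. The labels name 12 separate lungs. The scripts were tested on simulated data. CPM in the text are unscaled by TMM. Ratios and shares were compared by exact permutation. The 5 members were named everywhere, genes of the pathway lists where called in blood endothelium or mural nuclei, apart from a result that is not reported here, and the 5 most similar genes per member among those with a mean of at least 5 CPM in a class and no predicted-gene symbol. Pik3cb, Pik3ca and Cdh5 were named after their values were seen. The check of the aerocyte clusters was also chosen after seeing the data. Alternatives were DESeq2 1.42.0, its size factors, no filter on low counts, a lower nucleus minimum, stricter nuclei, doublets kept and clusters without Harmony. Others were only the 2 groups compared, a replicate block, the run number as a term among the 6 PBS libraries, and each library left out. A fit without scaling factors and a replicate block within the 6 PBS libraries were added after seeing the data. Deviations of same-numbered libraries from their group means correlated at 0.25 to 0.74 in each pair of PBS_Vehicle and PBS_NVP-BHG712 (blood endothelium, fibroblasts and whole lung). The numbers were treated as pairs in that comparison only in the fits with a replicate block. The main edgeR fit and the exact permutation tests did not use the pairing. Replicates 1 of these groups share run 1 and have the most UMIs of their groups. Replicates 2 share run 2, and replicates 3 have runs 2 and 3. The part of run or depth in these correlations was not tested. In no other pair of groups did all 3 numbers pass 0.1, and over all pairs 6, 7 and 9 of 18 did.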

Additional observations from a re-analysis of the deposited data

Results flagged for a closer look

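The effect of NVP-BHG712 on Ptprb in fibroblasts differed between bleomycin and PBS in a test of that difference, where the log2 interaction term was -2.03 (SE 0.40) at an edgeR adjusted p = 0.0315. Ptprb averaged 35.1 CPM in Bleo_Vehicle, and the other 3 groups had means of 10.7, 14.6 and 10.6 CPM (PBS_Vehicle, PBS_NVP-BHG712 and Bleo_NVP-BHG712). The call of the interaction was lost without any 1 of 8 libraries, namely Bleo_NVP-BHG712 replicates 1 and 3, Bleo_Vehicle replicate 2, PBS_NVP-BHG712 replicates 1 and 2 and PBS_Vehicle replicates 1, 2 and 3. It was also lost among stricter nuclei (-1.40, adjusted p = 0.284) and without Harmony (-1.05, adjusted p = 0.634). The summed pan-endothelial markers in fibroblasts were highest in the same 3 libraries, and their part in this was not tested. Groups of 3 libraries were too small for a test of single outlying libraries.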

How the results depend on the processing

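The number of member tests called was 3 in Bleo_Vehicle against PBS_Vehicle, 5 in Bleo_NVP-BHG712 against Bleo_Vehicle, 0 in PBS_NVP-BHG712 against PBS_Vehicle, 0 in Bleo_NVP-BHG712 against PBS_NVP-BHG712 and 1 in the interaction. Of all tests 2.74%, 3.85%, 0%, 0% and 0.376% were called. Without the filter on low counts the first 3 became 6, 10 and 1 and the interaction 4. There 2.42%, 2.52%, 0.0482% and 0.906% of all tests were called. Without Harmony the first 2 became 1 and 3 and the interaction 0, where 3.20%, 4.38% and 0.631% of all tests were called. Among stricter nuclei the first 2 and the interaction gave 0, where 1.52%, 1.94% and 0.232% of all tests were called. There 14 units were left, and Bleo_Vehicle replicate 1 kept 727 of 2233 nuclei. With doublets kept the second became 9 and the interaction 3, with 5.91% and 1.28% of all tests called. DESeq2 gave 3 for the interaction (1.27% of all tests), and the fit without scaling factors, chosen after seeing the data, gave 2 (0.348%). The fit of only 2 groups gave 1 for the first (1.08% of all tests). With 1 library left out the counts ranged from 1 to 12, 1 to 10, 0 to 1, 0 to 0 and 0 to 4. The shares of all tests called ranged from 1.06% to 8.29%, 0.801% to 9.74%, 0% to 0.0376%, 0% to 0.00193% and 0.148% to 2.99%.

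The log2 Angpt2 to Angpt1 ratio then ranged from 0.42 to 1.25 in Bleo_Vehicle against PBS_Vehicle, from -1.60 to -1.24 in Bleo_NVP-BHG712 against Bleo_Vehicle, from -0.32 to 0.50 in PBS_NVP-BHG712 against PBS_Vehicle and from -0.11 to 0.35 in all bleomycin against all PBS libraries. The share of blood endothelial nuclei ranged from -8.09 to -2.48, -0.21 to 5.3996, -2.54 to 2.55 and -5.02 to -2.76 percentage points in the same order. With doublets kept, the third share was -0.0868, and among stricter nuclei the fourth was -6.13 points. The cause of these shifts was not tested.

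With the replicate block the first 2 counts became 6 and 8 and the interaction 3, while the calls over all tests rose to 5.19%, 7.39% and 1.52%. In the PBS comparison, where same-numbered libraries were correlated, the block changed no member call, with 0 members called over all 12 libraries. A fit of the 6 PBS libraries, chosen after seeing the data, also called 0 members, and 74 of 87047 tests in all. Depth limits Angpt2 most, with 786 UMIs in all, and 3 mice per group limit every test.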
